A study of Homo sapiens with 9 samples.

Results

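Histone genes were followed in A375, an established line of human melanoma cells. The cells were left untreated or were exposed to Salvianolic acid B (SalB), a polyphenol of the sage *Salvia miltiorrhiza*. The compound was given at 100 µM or 200 µM for 48 h, and each of the 3 groups held 3 libraries of poly(A)-selected RNA, described by the labels as biological replicates. Untreated cells were the only control, and no solvent control is named in the labels. The genes were chosen by symbol: those named *H1-* with a number, *H2AC*, *H2BC*, *H3C* or *H4C* with a number, and *H2AZ1*, *H2AZ2*, *H2AX*, *H3-3A* and *H3-3B*. Of 78 such rows, 9 were at 0 in all 9 libraries (*H1-1*, *H1-7*, *H1-8*, *H2AC1*, *H2BC1*, *H3C11*, *H4C1*, *H4C7* and *H4C13*). The remaining 69 genes, of 20463 annotated genes with a row in the table, are described here.

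Histones H2A, H2B, H3 and H4 form the core of the nucleosome, and H1 binds the linker DNA between nucleosomes. Most core histone genes are replication-dependent: they lie in clusters, are transcribed mainly in S phase, and give mRNAs that end in a conserved stem-loop in place of a poly(A) tail. Replacement variants such as H2A.Z and H3.3 are made from single genes with ordinary polyadenylated mRNAs, and they enter chromatin throughout the cell cycle. Poly-T capture therefore sees the main product of such variant genes, but only those transcripts of the replication-dependent genes that carry a poly(A) tail. A change in the amount of such a transcript and a change in the share of it that is polyadenylated cannot be told apart in these libraries.

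The 69 genes were split by symbol into 7 variant genes (among them *H2AZ1*, *H2AZ2*, *H2AX*, *H3-3A*, *H3-3B* and the linker variant *H1-10*) and 62 genes of the replication-dependent families, called replication-type genes below. The replication-type genes comprised 5 for H1, 16 for H2A, 17 for H2B, 12 for H3 and 12 for H4. On GRCh38 with the GENCODE v29 annotation, 48 of them lay on chromosome 6 between 26020490 and 27893843. A further 11 lay on chromosome 1 between 149782689 and 149887916, 2 on chromosome 1 between 228456979 and 228460470, and 1, *H4C16*, on chromosome 12.

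The histone stem-loop was searched for by its 16-base consensus, with free positions in the stem and the loop, on the sense strand of the annotated transcripts, because its presence with further sequence behind it marks a gene with an annotated transcript that runs past the usual end. Searched over every annotated transcript of the histone genes, it was found in 30 of 62 replication-type genes (48.4%) and in 1 of 7 variant genes (*H2AX*). For all 58676 annotated genes only the longest transcript of each was searched, and 147 (0.251%) held it. This share and those of the histone genes are therefore not like for like. In 22 replication-type genes a transcript continued for more than 100 bases after the loop, and 15 of these 22 passed the filter on low counts described below. The 3 replication-type sequences shown are from genes with such a long transcript that were higher at 200 µM, and *H2AX* is the variant gene with the same element. Capitals mark the 16 bases that match.
*H2AC6*, 1128 bases of transcript after the loop: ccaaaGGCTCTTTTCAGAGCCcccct
*H2BC21*, 1729 bases after the loop: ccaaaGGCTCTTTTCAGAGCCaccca
*H4C8*, 1655 bases after the loop: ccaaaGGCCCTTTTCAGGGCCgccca
*H2AX*, 1044 bases after the loop: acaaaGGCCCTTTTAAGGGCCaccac
Of the 40 replication-type genes without such an extension, 33 had a longest model whose length was a multiple of 3, many of them coding sequence alone, so a missing match says nothing about their mRNA ends.

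Libraries held 27348621 to 30629685 counts. SOX10, a neural crest factor kept in melanoma, was at 323 to 552 CPM (counts scaled to a library total of 1000000), whereas the pigment genes PMEL, MLANA, TYR, TYRP1 and DCT were at 1.55 CPM or less. The T cell gene CD3E and the basal keratin KRT5 were at 0 in all libraries, and KRT18 was at 189 to 337 CPM. Of the melanocyte and neural crest markers examined, 7 of 10 exceeded 1 CPM in at least 1 library. So did 3 of 5 epithelial, 3 of 5 fibroblast or endothelial and 2 of 5 leukocyte markers. Among these were MITF (15.5 to 31.5 CPM), PAX3 (11.1 to 21.7), S100B (16.7 to 64.0), PDGFRB (9.3 to 30.6) and LYZ (1.27 to 4.09). The third library at 200 µM stood apart: mitochondrially encoded mRNAs took 4.75% of its counts, against 1.83% and 1.87% in the other two, 2.11% to 2.32% in control and 2.86% to 3.15% at 100 µM. Its counts differed from those of its 2 group members by a chi-square per degree of freedom of 112 and 153, against 7.36 to 23.7 for all other pairs within a group. Calls of the histone genes named here that begin or end without it are given with and without it, and the part of the mitochondrial share in them was not tested.

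At 200 µM the 2 classes of histone gene went opposite ways. Of the 7 variant genes 6 fell and 0 rose, with a median log2 fold change of −0.89, whereas of the 30 replication-type genes tested 15 rose, 1 fell and 14 were not called, with a median of 0.78. The median over all genes tested was 0.00. The calls are from edgeR's quasi-likelihood test at an adjusted p below 0.05, by which 37.3% of the 13968 genes tested were called (19.8% higher and 17.5% lower). DESeq2 likewise called 6 variant genes lower and 0 higher, and at an unadjusted p the same numbers resulted with edgeR. DESeq2 called 16 replication-type genes higher and 1 lower. Of the 15 higher by edgeR, *H2AC15* and *H2BC18* had entered the test only through their 200 µM libraries.

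At 100 µM few histone genes were called. edgeR called 1 variant gene higher (*H2AX*), 2 variant genes lower (*H3-3A*, *H3-3B*) and 4 replication-type genes lower (*H2BC12*, *H2AC18*, *H2AC19*, *H4C8*), in all 7 of 37 tested, where 37.1% of all genes were called. Of the replication-type genes 0 rose, with 2 higher at an unadjusted p and 0 by DESeq2. This split of 1 higher and 6 lower depended on the processing: it was 2 and 4 with total-count scaling and 4 and 8 without the third 200 µM library. With a trend on GC content and length removed from each library it was 4 higher (*H1-10*, *H2AC6*, *H2AC15* and *H3C10*) and 3 lower (*H3-3B*, *H2AC18* and *H2AC19*). Between the doses, 15 replication-type genes were higher and 1 lower at 200 µM than at 100 µM, and 6 variant genes were lower and 0 higher, where 44.4% of all genes were called. At an unadjusted p all 7 variant genes were lower. The comparisons share libraries: both doses use the same control, and the comparison of doses uses both treated groups.

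The summed level of the 7 variant genes was 3133, 3109 and 3131 CPM in the control libraries, 2449, 2635 and 2688 CPM at 100 µM, and 1849, 1845 and 1336 CPM at 200 µM. Group means were 3124 ± 13.3, 2591 ± 126 and 1677 ± 295 CPM (SD, n = 3), and the groups did not overlap. The 62 replication-type genes together reached only 84.4, 77.6 and 79.8 CPM in control, 76.4, 69.8 and 72.0 CPM at 100 µM, and 124, 125 and 131 CPM at 200 µM. Their means were 80.6 ± 3.48, 72.7 ± 3.37 and 126 ± 3.67 CPM (SD, n = 3), with every 100 µM library below every control library and every 200 µM library above. The gap at 100 µM was small and depended on TMM scaling: per 1000000 counts without scaling factors, the first 100 µM library (78.7) lay above the second control library (76.5), while all 200 µM libraries (122.7, 125.0 and 121.7) stayed above all others. Replication-type genes thus took 2.44% to 2.62% of all histone counts in control, 2.58% to 3.03% at 100 µM, and 6.27%, 6.34% and 8.90% at 200 µM, the last value being that of the library that stood apart. No test was made on these sums, since their members were chosen. In bulk RNA, fewer cells expressing a gene and less RNA per cell cannot be told apart.

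**Figure D1:**
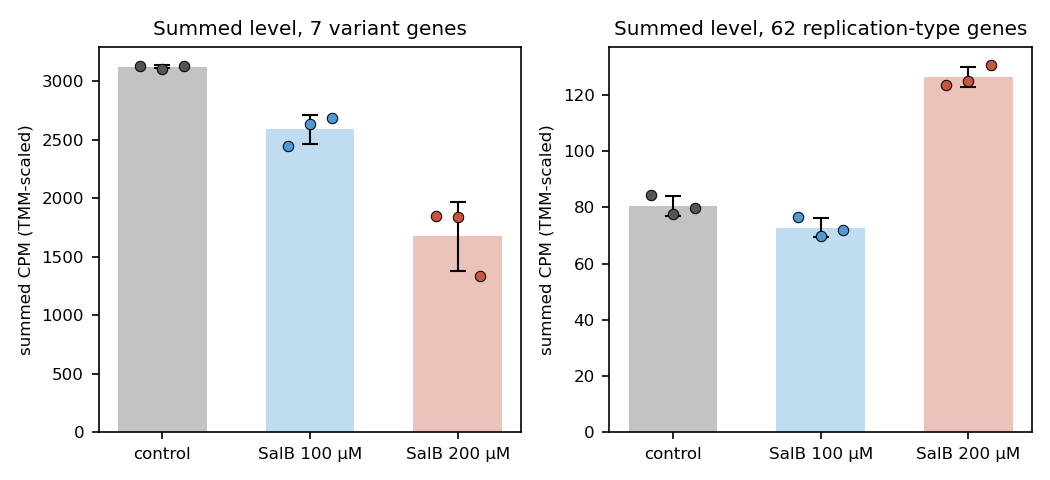
Summed level of the 7 variant genes (left) and the 62 replication-type genes (right), in TMM-scaled CPM on axes that start at 0. Bars are means and error bars the SD of 3 libraries, and points are libraries: the variant sum fell from 3124 CPM in control to 1677 CPM at 200 µM, while the replication-type sum went from 80.6 to 126 CPM.

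*H2AZ1*, *H3-3A* and *H3-3B* were the most abundant histone transcripts. Per kilobase of exon, the control level was 363 ± 4.36 CPM per kb for *H2AZ1*, 157 ± 2.43 for *H3-3A*, 154 ± 0.587 for *H3-3B*, 81.1 ± 4.42 for *H2AX*, 65.8 ± 2.12 for *H2AZ2* and 58.9 ± 4.20 for *H1-10* (SD, n = 3). The neighbours *H3-3A* and *H3-3B* in that order did not differ beyond their spread. The exon lengths are those of all annotated exons joined, so that genes with many annotated forms are set lower.

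*H2AZ1* and *H2AZ2* encode the 2 forms of H2A.Z, a variant placed at promoters and enhancers by the SRCAP and EP400 remodellers. *H2AZ1*, on chromosome 4 at 99948086 to 99950388, had 831, 831 and 848 CPM in control, 590, 685 and 688 CPM at 100 µM, and 428, 500 and 256 CPM at 200 µM. The 3 groups did not overlap, and the lowest value was in the third 200 µM library. Its log2 fold change in edgeR was −1.08 ± 0.20 at 200 µM (SE, adjusted p = 0.003) and −0.35 ± 0.20 at 100 µM (adjusted p = 0.2). Without the third 200 µM library these became −0.84 (adjusted p = 2.7e-05) and −0.33 (adjusted p = 0.0038), so whether the 100 µM value was called depended on that library. An antisense gene, AC097460.1, overlaps 9.68% of the *H2AZ1* exons, and no source used here states whether reads were counted by strand.

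*H2AZ2*, on chromosome 7 at 44826791 to 44848083, had 319, 317 and 301 CPM in control, 255, 286 and 294 CPM at 100 µM, and 159, 142 and 136 CPM at 200 µM. Every 200 µM library was thus below every other library, and the 100 µM libraries lay just under control. The log2 fold change was −1.10 ± 0.09 at 200 µM (edgeR, adjusted p = 2.7e-05), −0.17 ± 0.09 at 100 µM (adjusted p = 0.16) and −0.93 ± 0.09 between the doses (adjusted p = 3.7e-05). *H2AZ1* made up 72.3% to 73.8% of the H2A.Z counts in control, 69.9% to 70.6% at 100 µM, and 72.9%, 77.8% and 65.3% at 200 µM.

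*H3-3A* and *H3-3B* encode the same protein, histone H3.3, which is deposited outside DNA replication by the HIRA and the DAXX and ATRX chaperones. *H3-3B*, on chromosome 17 at 75776434 to 75785893, had 951, 947 and 944 CPM in control, 602, 662 and 662 CPM at 100 µM, and 588, 548 and 400 CPM at 200 µM. *H3-3A*, on chromosome 1 at 226061851 to 226072001, had 500, 499 and 486 CPM, then 336, 358 and 388 CPM, then 298, 253 and 221 CPM. Both fell at each dose against control with no overlap between groups.

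For *H3-3B* the log2 fold change was −0.56 ± 0.13 at 100 µM (edgeR, adjusted p = 0.0083) and −0.89 ± 0.13 at 200 µM (adjusted p = 0.00074). For *H3-3A* it was −0.46 ± 0.11 (adjusted p = 0.01) and −0.94 ± 0.11 (adjusted p = 0.00023). The step between the doses passed the test for *H3-3A* (−0.49 ± 0.11, adjusted p = 0.0059) and missed it for *H3-3B* (−0.33 ± 0.13, adjusted p = 0.065). That *H3-3B* step was called without the third 200 µM library, at a smaller size (−0.19, adjusted p = 0.014), without the first (−0.45, adjusted p = 0.029) or the second (−0.40, adjusted p = 0.044), with total-count scaling (−0.41, adjusted p = 0.047) and with a trend on GC content and length removed (−0.31, adjusted p = 0.038). When that trend was removed from each library, the *H3-3A* value at 100 µM became −0.03 (adjusted p = 0.91), so that call depends on this choice. The share of *H3-3B* among H3.3 counts stayed between 63.0% and 68.4% over the 9 libraries.

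*H2AX* encodes the H2A variant that is phosphorylated around DNA double-strand breaks, and it is the variant gene that yields both a stem-loop and a polyadenylated mRNA. For *H2AX* too, a change in amount and a change in the polyadenylated share cannot be told apart here. It lies on chromosome 11 at 119093854 to 119095467. Its level was 132, 123 and 138 CPM in control, 191, 161 and 169 CPM at 100 µM, and 78.1, 87.5 and 63.4 CPM at 200 µM. The 100 µM libraries were therefore all above control and the 200 µM libraries all below it.

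The log2 fold change of *H2AX* was 0.41 ± 0.12 at 100 µM (edgeR, adjusted p = 0.027), −0.78 ± 0.12 at 200 µM (adjusted p = 0.0012) and −1.19 ± 0.12 between the doses (adjusted p = 7.7e-05). The rise at 100 µM is the less certain of these. It missed the threshold in 5 of 9 fits that left out 1 library (any control library, or the first or the third library at 100 µM, adjusted p up to 0.1) and with the GC and length trend removed (0.20, adjusted p = 0.085).

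*H1-10*, a linker variant on chromosome 3 at 129314771 to 129316277, had 89.3, 82.2 and 94.8 CPM in control, 135, 131 and 136 CPM at 100 µM, and 73.5, 82.5 and 33.2 CPM at 200 µM. All 100 µM libraries were above control, and the third 200 µM library was far below its 2 group members. The edgeR fit with all libraries gave 0.60 ± 0.27 at 100 µM (adjusted p = 0.11), −0.49 ± 0.27 at 200 µM (adjusted p = 0.18) and −1.09 ± 0.27 between the doses (adjusted p = 0.0099). Without that library the 3 values were 0.62 (adjusted p = 3.5e-05), −0.17 (adjusted p = 0.087) and −0.79 (adjusted p = 1.4e-05). With the GC and length trend removed and all libraries kept, *H1-10* was called at both doses, at 0.39 (adjusted p = 0.028) and −0.54 (adjusted p = 0.0048). The antisense gene H1FX-AS1 overlaps 22.9% of the exons of *H1-10*, so part of its counts may belong to that gene.

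All 6 variant calls at 200 µM held without the third library at that dose, with log2 fold changes, among others, of −0.65 for *H2AX*, −0.72 for *H3-3B*, −0.83 for *H3-3A*, −0.84 for *H2AZ1* and −1.04 for *H2AZ2*. They also held in each fit that left out any other single library, with a largest adjusted p of 0.012 for *H2AZ1*.

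**Figure D2:**
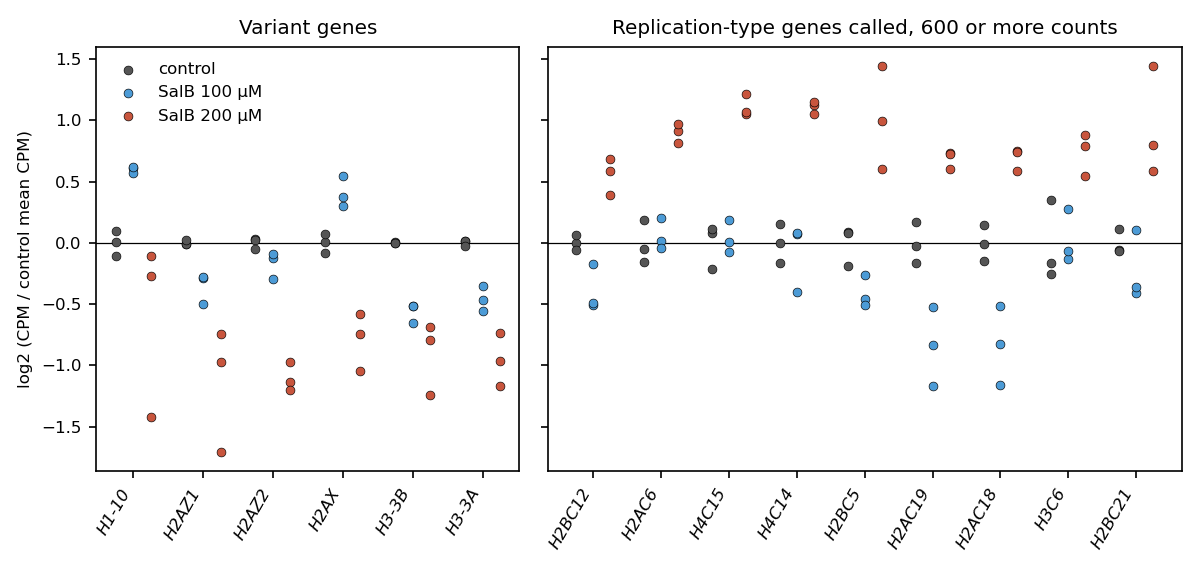
Level of each library divided by the control mean, on a log2 scale, for the variant genes described here (left) and the replication-type genes called at 200 µM with at least 600 counts in all (right). Each point is 1 library: red points (200 µM) lie below the line for the variant genes and above it for the replication-type genes. For every variant gene shown, the third 200 µM library is the lowest point.

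Among the replication-type genes, 32 of 62 lay below the filter, which asks for about 0.34 CPM (10 counts) in 3 libraries. Their 9 libraries summed to between 5 and 69 counts a gene, with no single library above 13 counts, and the 3 largest were *H1-3* (69 counts), *H3C14* (58) and *H3C15* (57). These 32 comprised 3 of 5 H1, 7 of 16 H2A, 7 of 17 H2B, 9 of 12 H3 and 6 of 12 H4 genes. With the filter removed, edgeR called 0 of the 32 in any comparison. At an unadjusted p of that fit, 1 was higher at 100 µM, 2 were higher at 200 µM and 2 were lower between the doses. DESeq2 called 0 of the 32, with 2 higher at 200 µM at its unadjusted p. It gave no adjusted p for 15 of the 32 at 100 µM, 9 at 200 µM and 1 between the doses. Those genes could not be called by it. Some tested genes passed the filter only where they were high, which is said beside those that were called. *H2AC13* and *H2BC8*, which were not called at 200 µM, passed through treated libraries alone, with no control library above the filter.

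The H2B genes had the most calls at 200 µM. Of 10 tested 7 rose and 0 fell, against 4 higher and 1 lower of 9 for H2A, 3 higher of 6 for H4, 1 higher of 3 for H3 and 0 of 2 for H1. Over all genes tested 19.8% were higher and 17.5% lower. The H2A count holds both *H2AC18* and *H2AC19*, and the H4 count both *H4C14* and *H4C15*, which are copies. The H2B count also holds *H2BC18*, and the H2A count *H2AC15* and *H2AC20*, which passed the filter only through groups where they were high. Above the filter in all 9 libraries were 6 H2B, 4 H2A, 3 H4, 1 H3 and 1 H1 gene. Of these 6, 3, 2, 1 and 0 rose, in that order, and 0 fell. No difference between families was tested. DESeq2 and total-count scaling each added 1 H1 gene, *H1-2*, described below.

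*H2BC12* encodes one of the replication-dependent H2B proteins and was the most counted replication-type gene. Its model of 381 bases has no stem-loop match and may be coding sequence alone. On that length its control level was 48.5 ± 2.07 CPM per kb, and a longer transcript would set this level lower. *H2BC12* lies on chromosome 6 at 27146418 to 27146798. It had 18.4, 17.7 and 19.3 CPM in control, 16.4, 13 and 13.1 CPM at 100 µM, and 24.2, 29.7 and 27.7 CPM at 200 µM, so that the groups ranked 100 µM, control, 200 µM without overlap. The log2 fold change was 0.56 ± 0.12 at 200 µM (edgeR, adjusted p = 0.0067), −0.38 ± 0.12 at 100 µM (adjusted p = 0.037) and 0.94 ± 0.12 between the doses (adjusted p = 0.00031). The call at 100 µM was lost in 5 of 9 fits that left out 1 library (any control library, or the second or the third at 100 µM, adjusted p up to 0.15), with total-count scaling (adjusted p = 0.074) and with the GC and length trend removed (−0.28, adjusted p = 0.15).

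*H2BC5*, on chromosome 6 at 26158146 to 26171349, had 3.43, 2.82 and 3.41 CPM in control, 2.34, 2.27 and 2.69 CPM at 100 µM, and 6.42, 4.88 and 8.74 CPM at 200 µM. *H2BC21*, in the chromosome 1 cluster at 149884459 to 149886652, had 1.80, 1.79 and 2.03 CPM, then 1.41, 1.46 and 2.01 CPM, then 3.26, 2.81 and 5.08 CPM. In both genes every 200 µM library was above all others and the third was highest. At 200 µM the log2 fold change was 1.05 ± 0.22 for *H2BC5* (edgeR, adjusted p = 0.0048) and 0.99 ± 0.25 for *H2BC21* (adjusted p = 0.014). Without the third 200 µM library they were 0.82 (adjusted p = 0.003) and 0.71 (adjusted p = 0.019).

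The other H2B genes that rose at 200 µM were low. *H2BC11* went from 1.25 to 1.96 CPM in control to 2.46 to 3.35 CPM (0.83 ± 0.26, edgeR adjusted p = 0.033), *H2BC15* from 1.28 to 1.35 CPM to 1.60 to 3.69 CPM (1.11 ± 0.30, adjusted p = 0.019), and *H2BC4* from 0.827 to 0.945 CPM to 1.5 to 2.11 CPM (1.04 ± 0.29, adjusted p = 0.019). *H2BC18* was at 0.169 to 0.312 CPM in control and 0.471 to 1.07 CPM at 200 µM (1.56 ± 0.43, adjusted p = 0.019), but it passed the filter only through the 200 µM libraries. *H2BC6* (0.96 ± 0.36, adjusted p = 0.063), *H2BC8* (1.01 ± 0.42, adjusted p = 0.092) and *H2BC26* (0.03 ± 0.43, adjusted p = 0.96) were not called. AL353759.1 overlaps 28.2% of the exons of *H2BC6* on the opposite strand, and without the third 200 µM library *H2BC6* was called (1.14, adjusted p = 0.038).

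In the H2A family *H2AC6*, on chromosome 6 at 26124145 to 26139116, had the most counts. Its level was 9.84, 8.37 and 7.80 CPM in control, 8.74, 8.40 and 9.95 CPM at 100 µM, and 16.3, 15.3 and 17.0 CPM at 200 µM. The first 2 groups overlapped and the third stood clear of both. The log2 fold change was 0.90 ± 0.12 at 200 µM (edgeR, adjusted p = 0.00059) and 0.06 ± 0.12 at 100 µM (adjusted p = 0.74), although with the GC and length trend removed it was 0.46 at 100 µM and called (adjusted p = 0.012).

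*H2AC18* and *H2AC19* lie in the chromosome 1 cluster at 149842188 to 149842736 and at 149851061 to 149851624. All 549 bases of the *H2AC18* model occur in *H2AC19*, and the counts of the 2 genes differed by at most 2 in any library, so they share reads and count as a single measurement. *H2AC19* had 3.12, 2.48 and 2.74 CPM in control, 1.93, 1.23 and 1.56 CPM at 100 µM, and 4.61, 4.59 and 4.21 CPM at 200 µM. The pair was thus below control at 100 µM and above it at 200 µM, with no overlap. For *H2AC19* the log2 fold change was −0.82 ± 0.19 (edgeR, adjusted p = 0.0099), 0.69 ± 0.19 (adjusted p = 0.019) and, between the doses, 1.51 ± 0.19 (adjusted p = 0.00027).

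*H2AC20* was the replication-type gene that fell at 200 µM. It had 18, 18 and 19 counts in control, 13, 17 and 19 counts at 100 µM and 3, 5 and 9 counts at 200 µM, and passed the filter only through the first 2 groups. Its log2 fold change was −1.55 ± 0.41 (edgeR, adjusted p = 0.017). *H2AC15* was at 0.0675 to 0.173 CPM in control and 0.397 to 0.570 CPM at 200 µM (1.90 ± 0.46, adjusted p = 0.011), and passed only through 200 µM. All of its exon lies within *H2BC15* on the opposite strand, so its counts cannot be told apart from those of that gene. *H2AC25* (−0.37 ± 0.23, adjusted p = 0.24), *H2AC8* (0.25 ± 0.55, adjusted p = 0.76), *H2AC11* (0.21 ± 0.64, adjusted p = 0.83) and *H2AC13* (0.90 ± 0.60, adjusted p = 0.27) were not called at 200 µM. At 100 µM *H2AC25* was called without the third 200 µM library (−0.39, adjusted p = 0.031) and missed the threshold with it (−0.41, adjusted p = 0.2).

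The H4 genes all encode nearly the same short protein. *H4C14* and *H4C15*, at 149832659 to 149839767 and 149854045 to 149861210 on chromosome 1, are copies: all 1547 bases of the *H4C14* transcript occur in *H4C15*, so how reads were split between them is uncertain. *H4C15* had 4.30, 3.51 and 4.39 CPM in control, 3.85, 4.09 and 4.64 CPM at 100 µM, and 8.41, 9.44 and 8.54 CPM at 200 µM. *H4C14* had 3.85, 3.44 and 4.29 CPM, then 2.92, 4.06 and 4.08 CPM, then 8.41, 8.01 and 8.58 CPM. Both rose at 200 µM alone, by a log2 fold change of 1.11 ± 0.14 for *H4C15* (edgeR, adjusted p = 0.00035) and 1.11 ± 0.16 for *H4C14* (adjusted p = 0.00077), and at 100 µM they were at 0.04 ± 0.14 and −0.07 ± 0.16 (adjusted p = 0.83 and 0.78).

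*H4C8*, on chromosome 6 at 26277609 to 26285638, had 1.04, 1.10 and 0.540 CPM in control, 0.257, 0.584 and 0.389 CPM at 100 µM, and 2.39, 2.60 and 3.61 CPM at 200 µM. The 100 µM and control groups overlapped, and the 200 µM group stood above both. Its log2 fold change was 1.68 ± 0.35 at 200 µM (edgeR, adjusted p = 0.0052) and 2.79 ± 0.38 between the doses (adjusted p = 0.00036), which is 6.93-fold and the largest among the histone genes tested. The value of −1.12 ± 0.39 at 100 µM was at the threshold (adjusted p = 0.048), and it missed it in 6 of 9 fits that left out 1 library (the first or the second control, the first or the third at 100 µM, or the first or the second at 200 µM, adjusted p up to 0.16) and with total-count scaling (−1.05, adjusted p = 0.055), no filter (−1.11, adjusted p = 0.055), assembled transcripts kept (−1.11, adjusted p = 0.056) or the GC and length trend removed (−0.87, adjusted p = 0.09). The remaining H4 genes tested were not called at 200 µM: *H4C12* (0.07 ± 0.40, adjusted p = 0.9), *H4C16* (−0.43 ± 0.39, adjusted p = 0.42) and *H4C11* (−1.0 ± 0.70, adjusted p = 0.29).

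Of the H3 genes *H3C6* rose, from 2.46, 1.72 and 1.62 CPM in control to 3.55, 3.35 and 2.82 CPM at 200 µM (0.74 ± 0.22, edgeR adjusted p = 0.024). *H3C10* (0.63 ± 0.40, adjusted p = 0.25) and *H3C3* (−0.76 ± 0.58, adjusted p = 0.34) did not pass. At 100 µM *H3C10* was at 1.07 ± 0.39 (adjusted p = 0.06), and with the GC and length trend removed it was called there (1.29, adjusted p = 0.029), as it was without the third 200 µM library (1.09, adjusted p = 0.039) or the third control library (1.49, adjusted p = 0.031). *H1-2*, a main linker histone of dividing cells, had 14.8, 14.5 and 13.8 CPM in control, 14.4, 13.1 and 11.8 CPM at 100 µM, and 17.4, 16.5 and 20.2 CPM at 200 µM. It was called between the doses (0.46 ± 0.12, adjusted p = 0.011) and missed the threshold against control (0.33 ± 0.12, adjusted p = 0.052), where DESeq2 (adjusted p = 0.029) and total-count scaling (adjusted p = 0.049) called it. *H1-4* was at 0.94 ± 0.98 (adjusted p = 0.49), from 76 counts in all.

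Several of the 15 higher calls at 200 µM rested on all libraries being present. In every fit that left out 1 library, 7 of them held (*H2AC6*, *H2AC15*, *H2BC5*, *H2BC12*, *H4C8*, *H4C14* and *H4C15*), as did 6 of the 7 lower calls, all but *H2AC20*. Of those 7 higher calls, *H2AC15* entered the test only through 200 µM and lies within *H2BC15*, and *H4C14* and *H4C15* are copies. Without the first control library *H2BC4*, *H2BC11*, *H2BC15*, *H2BC21* and *H2AC20* were lost (edgeR adjusted p of 0.05 to 0.11). Without the second, *H2AC18*, *H2AC19*, *H2BC4*, *H2BC15*, *H2BC18*, *H2BC21* and *H3C6* were lost (0.052 to 0.089), and without the third *H2AC18*, *H2AC19*, *H2AC20*, *H2BC11*, *H2BC15*, *H2BC18* and *H3C6* (0.05 to 0.087). Without the first 200 µM library *H2AC18*, *H2AC19*, *H2AC20*, *H2BC11*, *H2BC15* and *H3C6* were lost (0.052 to 0.075). Without the second, *H2BC11* and *H3C6* were lost (0.052 to 0.085), and without the third, *H2BC18* (0.055).

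**Figure D3:**
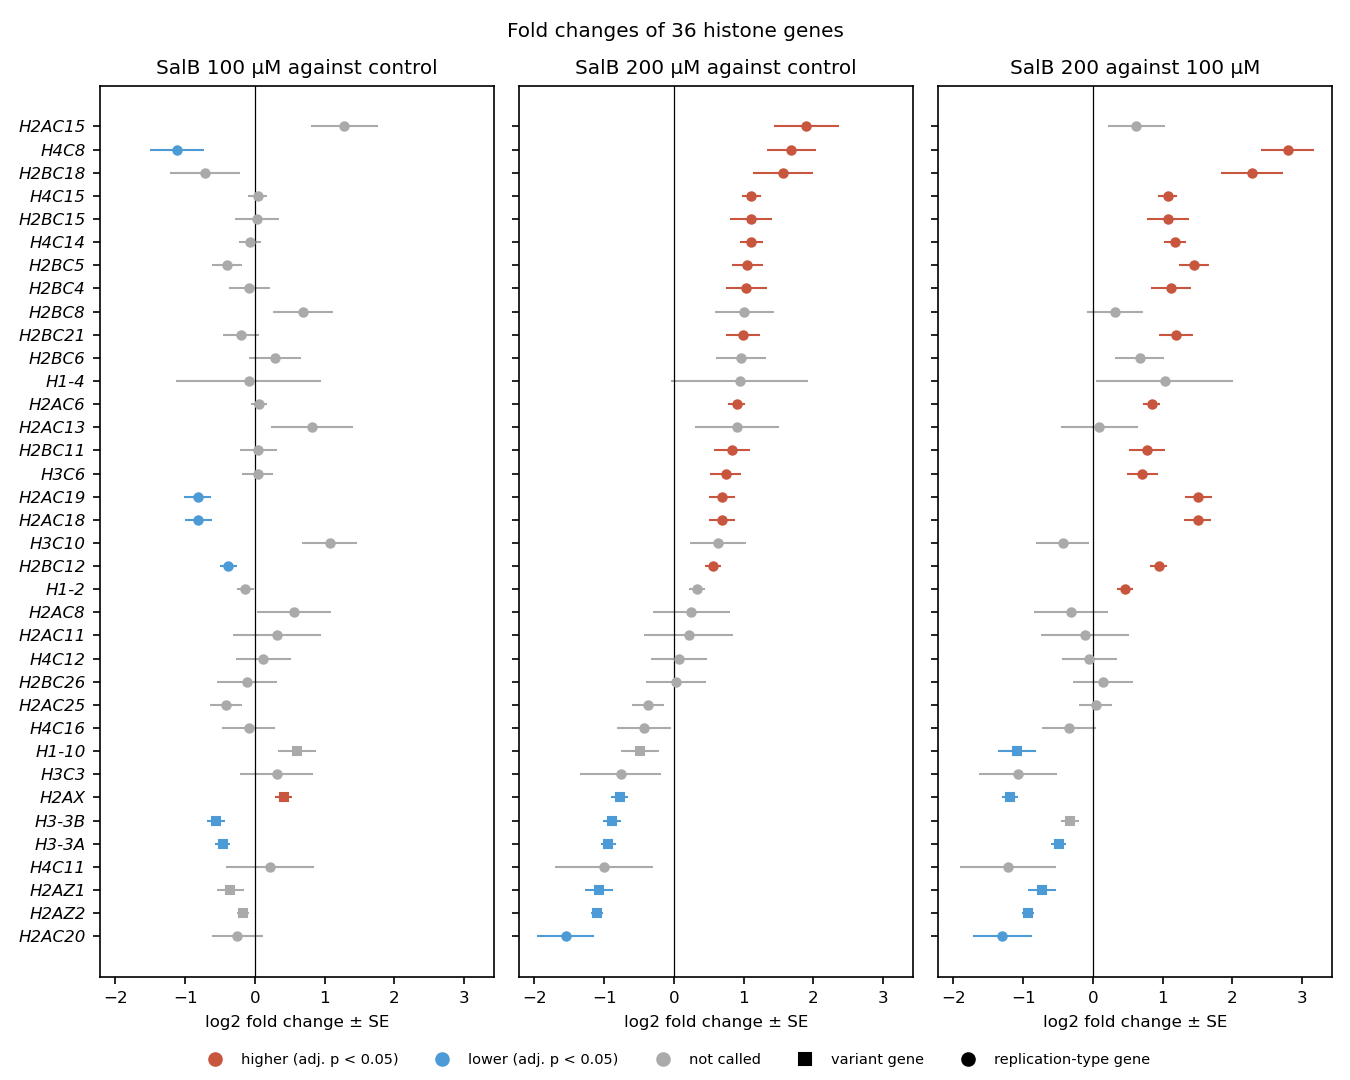
Log2 fold change ± SE of 36 of the 37 histone genes tested in the 3 comparisons, ordered by the change at 200 µM against control. Squares are variant genes and circles replication-type genes, red is higher and blue lower at an adjusted p below 0.05, and grey is not called: at 200 µM the called squares lie at −1.10 to −0.78 and 15 circles lie between 0.56 and 1.90.

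Between the doses the same 2 classes separated: the 15 higher calls were all replication-type, and 6 of the 7 lower calls were variant genes. Over all genes tested 22.4% were higher and 21.9% lower. The 15 include both members of the copy pairs *H2AC18* and *H2AC19* and *H4C14* and *H4C15*. They also include *H2BC18*, and the other lower call was *H2AC20*. Both of these passed the filter only through groups where they were high. In fits that left out 1 library 11 of the 15 and 5 of the 7 held. With the GC and length trend removed *H2AC20* was lost (−1.19, edgeR adjusted p = 0.064), as it was by DESeq2 (adjusted p = 0.056), and with total-count scaling *H2BC11* was lost (0.70, edgeR adjusted p = 0.058). *H2AC20* was also lost without any one of the 3 control libraries, the second or the third at 100 µM, or the first or the second at 200 µM (edgeR adjusted p up to 0.092), and *H2BC11* without the third control library, any at 100 µM, or the first or the second at 200 µM (up to 0.12). *H3C6* was lost without the first or the third 100 µM library or the first or the second 200 µM library (up to 0.087), and *H2BC15* without the first or the second 100 µM library or the first 200 µM library (up to 0.065). *H2AZ1* was lost without the second or the third 100 µM library (up to 0.052) and *H1-2* without the third (0.051).

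Histone genes often sit head to head and share a promoter region, and 11 such pairs with RefSeq starts less than 500 bases apart were found among the members. *H2BC7* is paired there with both *H2AC7* and *H3C4*, whose RefSeq starts coincide. In the pair *H2BC4* and *H2AC6*, with starts 246 bases apart, both genes rose at 200 µM (log2 fold changes 1.04 and 0.90). In the pair *H2BC11* and *H2AC11*, 248 bases apart, the first rose (0.83) and the second was at 0.21 and not called. In the chromosome 1 pair *H2BC21* and *H2AC20*, 236 bases apart, the first rose (0.99) and the second fell (−1.55). In *H2AC15* and *H2BC15*, 194 bases apart, both rose (1.90 and 1.11), but they share reads as said above. In *H2AC25* and *H2BC26*, 230 bases apart, neither was called (−0.37 and 0.03), nor was either gene of *H2BC8* and *H2AC8*, 233 bases apart (1.01 and 0.25). *H2AC20* and *H2AC15* passed the filter only through the groups where they were high, and no difference between partners was tested. In the chromosome 1 cluster near *H2BC21* 6 of the 7 genes tested rose and 1 fell. The 6 include both members of the copy pairs *H2AC18* and *H2AC19* and *H4C14* and *H4C15*. They also include *H2BC18*, which passed the filter only through its 200 µM libraries. In the chromosome 6 cluster 9 of 20 rose and 11 were not called, beside 19.8% higher over all genes tested. *H2AC20* was the replication-type gene lower at 200 µM also at an unadjusted p of the edgeR test.

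Promoters of 300 bases, 250 before and 50 after the RefSeq start, were available for 65 of the 69 genes on GRCh38.p14. Exact motifs were searched on both strands, with overlaps between motifs allowed. The octamer ATTTGCAT, the sequence bound by OCT1 at H2B promoters, was found in 13 of 17 H2B promoters (76.5%) and 10 of 15 H2A promoters (66.7%), in 1 of 11 H3, 0 of 11 H4 and 0 of 5 H1 promoters, and in 1.80% of 27305 promoters of all genes. The H3 promoter with the octamer, that of *H3C4*, is the same window as that of the H2A gene *H2AC7* (chr6:26199244-26199543), so this match is counted in both families. CCAAT was found in 84.7% of replication-type promoters, in 5 of 6 variant promoters (83.3%) and in 35.7% of all. TATAAA was found in 62.7%, in 4 of 6 (66.7%) and in 12%. The CHR element TTTGAA, known from G2 and M phase genes, was found in 2 of 6 variant promoters (33.3%), in 37.3% of replication-type promoters and in 15.4% of all. Among the 15 replication-type genes that rose at 200 µM the octamer was found in 6 (40.0%), against 24 of 59 replication-type promoters (40.7%). A match is a description and not a binding site.

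The promoters of 2 H2B genes that rose, one from each large cluster, are shown beside that of *H2AZ1*, which fell. Capitals mark matches on either strand to the octamer, the CCAAT and TATA boxes, the cAMP response element (letters TGACGTCA, in 15.3% of replication-type promoters and 1.98% of all) or the CHR element, and all 3 are minus-strand genes printed 5′ to 3′ in the direction of transcription.
*H2BC12*, chr6:27146809-27147108: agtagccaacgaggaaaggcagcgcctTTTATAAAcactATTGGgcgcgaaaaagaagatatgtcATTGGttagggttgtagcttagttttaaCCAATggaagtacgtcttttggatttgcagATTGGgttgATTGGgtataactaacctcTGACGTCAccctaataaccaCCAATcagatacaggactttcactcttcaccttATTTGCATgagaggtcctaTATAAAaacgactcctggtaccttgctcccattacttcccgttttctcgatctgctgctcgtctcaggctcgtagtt
*H2BC21*, chr1:149886633-149886932: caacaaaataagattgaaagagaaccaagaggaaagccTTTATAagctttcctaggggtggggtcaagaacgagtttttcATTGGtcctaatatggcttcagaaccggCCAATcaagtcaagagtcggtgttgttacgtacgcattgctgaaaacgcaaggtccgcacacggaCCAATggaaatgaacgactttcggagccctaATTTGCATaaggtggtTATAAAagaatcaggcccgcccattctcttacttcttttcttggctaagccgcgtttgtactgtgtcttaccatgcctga
*H2AZ1*, chr4:99950226-99950525: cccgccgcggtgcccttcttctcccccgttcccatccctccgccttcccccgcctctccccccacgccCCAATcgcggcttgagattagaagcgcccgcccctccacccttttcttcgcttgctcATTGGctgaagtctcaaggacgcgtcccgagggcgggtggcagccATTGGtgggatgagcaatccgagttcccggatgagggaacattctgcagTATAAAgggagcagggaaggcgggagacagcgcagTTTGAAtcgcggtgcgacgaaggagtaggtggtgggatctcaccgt
Both H2B promoters hold 1 octamer followed by a TATAAA, and the *H2AZ1* promoter holds 3 CCAAT boxes, 1 TATAAA, 1 TTTGAA and no octamer.

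The long-transcript class described with the stem-loops was compared with the rest by count. Of the 22 replication-type genes with more than 100 annotated bases after the stem-loop, 15 were tested and 8 rose at 200 µM, and of the other 40, 15 were tested, 7 rose and 1 fell. Over all genes tested 19.8% were higher and 17.5% lower. The 8 include the copies *H4C14* and *H4C15*, and *H2BC18*, which entered the test only through its 200 µM libraries. The 7 include the copies *H2AC18* and *H2AC19*, and *H2AC15*. Both *H2AC15* and *H2AC20*, the gene that fell, passed the filter only through groups where they were high. The difference between these counts was not tested.

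In all, 4 lists of related genes were examined for context, and their members were described by count only. The first holds 20 genes that transcribe histone genes or process histone mRNA ends. At 200 µM 3 of them rose, 1 fell, and the median log2 fold change was −0.08, where 37.3% of all genes tested were called. SLBP, the protein that binds the stem-loop, was at 121 ± 2.15 CPM in control and 113 ± 10.5 CPM at 200 µM (−0.10 ± 0.08, edgeR adjusted p = 0.37). NPAT, the coactivator of histone genes in S phase, was at 63.1 ± 4.77 and 55.9 ± 17.4 CPM (−0.18 ± 0.19, adjusted p = 0.5). The called genes were TUT7, which adds uridines to histone mRNA (0.52 ± 0.14, adjusted p = 0.02), SYMPK, a scaffold of the cleavage complex (0.31 ± 0.09, adjusted p = 0.028), ZNF473, a partner of the U7 particle (0.30 ± 0.10, adjusted p = 0.046), and ERI1, an exonuclease of histone mRNA (−0.39 ± 0.13, adjusted p = 0.044). These calls were close to the threshold: the count of 4 became 0 without the first or the second control library, 1 without the third control or the second 100 µM library, 2 without the third 100 µM library, and 12 without the third 200 µM library.

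Of the 25 histone chaperones and exchange factors, 12 rose and 4 fell at 100 µM, and 3 rose and 9 fell at 200 µM, with medians of 0.22 and −0.22. Over all genes tested 18.9% were higher and 18.2% lower at 100 µM, and 19.8% and 17.5% at 200 µM. HJURP, the chaperone of the centromeric histone CENP-A, went from 124 ± 4.65 to 95.3 ± 3.18 and 67.2 ± 4.69 CPM (SD, n = 3) and fell at 200 µM by −0.88 ± 0.08 (edgeR adjusted p = 5.1e-05). ANP32E, which removes H2A.Z from chromatin, fell by −1.30 ± 0.19 (adjusted p = 0.00071), and RBBP4, a histone-binding subunit of several complexes, by −0.42 ± 0.07 (adjusted p = 0.0012). SUPT6H, an elongation factor that binds histones, rose by 0.64 ± 0.08 (adjusted p = 0.00042).

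Most of the tested histone variants that the symbol rule does not cover also fell at 200 µM. CENPA, the centromeric H3 variant, was at 43.0 ± 2.20 CPM in control, 41.1 ± 4.99 CPM at 100 µM and 12.5 ± 4.16 CPM at 200 µM (−1.78 ± 0.21, edgeR adjusted p = 0.00023). MACROH2A1 and MACROH2A2, which encode the macro-domain H2A variants, were at −0.39 ± 0.06 (adjusted p = 0.0012) and −0.72 ± 0.20 (adjusted p = 0.019). Of 4 tested, 3 fell and 0 rose at 200 µM, and by DESeq2 also 3 fell and 0 rose, where 17.5% of all genes were lower and 19.8% higher. At 100 µM 1 of the 4 rose and 0 fell, where 18.9% of all genes were higher and 18.2% lower. That call was lost with no filter, with the GC and length trend removed, and without any 1 of the control or 100 µM libraries.

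Among 20 genes of the S phase machinery, 2 rose and 13 fell at 200 µM (median −0.41), where 19.8% of all genes were higher and 17.5% lower. At 100 µM 4 rose and 4 fell (median 0.03), where 18.9% and 18.2% of all genes did. The 8 calls at 100 µM became 4 or 5 without any 1 of the control or 100 µM libraries and 16, 8 in each direction, without the third 200 µM library. RRM2, a subunit of ribonucleotide reductase, was at 372 ± 9.24 CPM in control, 329 ± 9.44 CPM at 100 µM and 180 ± 7.53 CPM at 200 µM (−1.05 ± 0.07, edgeR adjusted p = 7.9e-06). PCNA, the sliding clamp of DNA polymerase, fell by −0.56 ± 0.07 (adjusted p = 0.00032) and GMNN, an inhibitor of replication licensing, by −0.73 ± 0.08 (adjusted p = 0.00015). CCNE1, the cyclin of entry into S phase, rose from 19.2 ± 1.25 to 39.5 ± 0.956 CPM (1.04 ± 0.09, adjusted p = 3.7e-05). The polyadenylated transcripts of replication-type histone genes were thus higher at 200 µM in libraries where most of these S phase genes were lower, and the relation of the 2 was not tested.

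**Figure D4:**
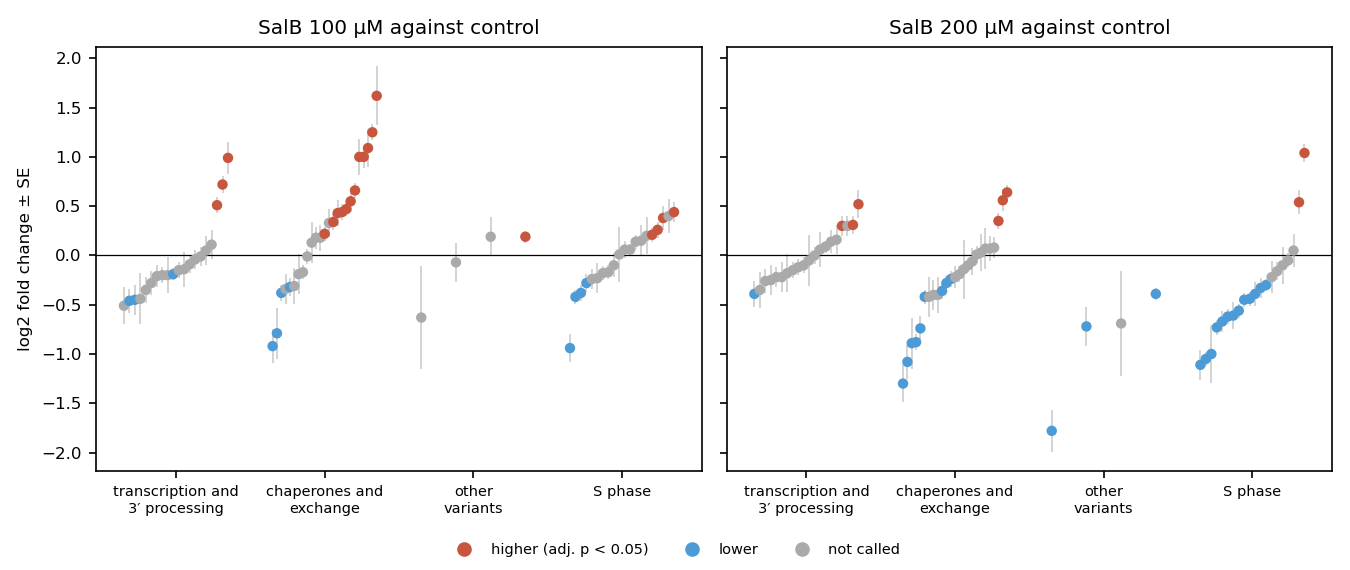
Log2 fold change ± SE of each tested gene in the 4 related lists at 100 µM (left) and 200 µM (right) against control, sorted within each list. Red is higher, blue lower and grey not called: the S phase list has 13 lower and 2 higher genes at 200 µM, and the chaperone list has 12 higher genes at 100 µM and 9 lower genes at 200 µM.

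By profile over the 9 libraries (Pearson r of log2 CPM, a description over 3 groups that share treatment), the genes most like *H2AZ1* were ECHDC2 (r = 0.994), LDHB (0.990), AP1S3 (0.989), PPCDC (0.988) and PARK7 (0.987). Those most like the summed replication-type genes were LYPD3 (0.996), FOSB (0.995), IFIT3 (0.994), SH3BP5 (0.993) and NAV3 (0.993).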

How the data were processed

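RNA of 9 libraries was analysed, 3 in each group. The authors deposited whole-number read counts per gene, without normalization. The submitters' processing notes name GRCh38 and the tools HISAT2, featureCounts, DESeq2 and FastQC. No source used here gives versions, the annotation release or the strand setting, so overlapping genes can share reads. The table had 22605 features. The 2142 transcripts assembled by the authors (1.25% to 1.41% of counts) were left out, leaving 20463 annotated genes.

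Counts were fitted in R 4.3.3 with edgeR 4.0.16: filterByExpr (10 counts, about 0.34 CPM), TMM scaling, a robust quasi-likelihood model over all 9 libraries with the group as term and 6 residual degrees of freedom. Benjamini-Hochberg adjustment ran over 13968 genes in each of 3 comparisons, and genes were called below 0.05. The SE is the log2 fold change divided by the root of F. CPM values use TMM-scaled library sizes. The fit was tested on simulated data. With 3 against 3 libraries the smallest two-sided p of an exact permutation test is 0.1, and p-values are therefore those of the model.

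Positions are from GENCODE v29 (65 genes matched by identifier, 4 by an older symbol) and promoters from RefSeq, GRCh38.p14. All tested histone genes but 1, which is counted and summed with the others but not reported here, the up to 4 called genes of each related list with the smallest adjusted p at 200 µM, SLBP, NPAT and CENPA, and the 5 genes closest in profile are named. The members and lists were chosen with earlier results of these data known. Alternatives were RLE and total-count scaling, other filters, DESeq2 1.42.0, a replicate block, the 2 groups alone, assembled transcripts kept, a GC and length offset, and leaving out each library. Profiles used a pseudocount of 0.1 CPM.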

Additional observations from a re-analysis of the deposited data

How the results depend on the processing

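No histone gene changed direction while called, under any alternative run. The count of histone genes called at 100 µM against control, 7 in all, was 4 with the replicate block, 13 with the 2 groups fitted alone, and 4 to 12 when 1 library was left out (4 without the first or second control library or the third at 100 µM, 12 without the third at 200 µM). The count at 200 µM against control, 22, stayed within 15 to 25 and that between the doses, 22, within 17 to 23 over all alternatives. The replicate block gave 21 and 22 there. The replicate numbers did not pair the libraries: the correlation of deviations between same-numbered libraries was −0.163 to 0.0273. With 1 gene of each near-identical pair, an alternative chosen after seeing the data, the counts were 6, 20 and 20. The summed replication-type level at 200 µM was 123.1 CPM without scaling factors, 126.7 without mitochondrially encoded mRNAs and 126.3 with TMM scaling. The cause of each change was not tested. Depth limits the low genes: the SE of the log2 fold change at 200 µM was 0.09 for *H2AZ2*, with 64913 counts in all, and 0.98 for *H1-4*, with 76.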
